A study of Mus musculus with 16 samples.

Results

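The 10 genes described here belong to myostatin, activin and bone morphogenetic protein (BMP) signalling: the ligands Mstn and Gdf5, the secreted antagonists Fst and Fstl3, the receptors Acvr2a, Acvr2b and Bmpr1a, the signal carriers Smad1 and Smad3, and the target Id1. They were chosen by gene symbol, with earlier results of these data known. All array probes whose transcript accession belongs to one of them were taken, which gave 14 probes for the 10 genes among 55588 probes in all. All 10 genes passed the filter on dim probes and stand among the 21772 genes tested. RNA came from the gastrocnemius, a calf muscle of mainly fast fibres, of untreated female C57Bl/6J mice, an inbred strain, and each sample was read on 1 array with a single dye. There were 4 samples at each of 3, 15, 24 and 29 months. All groups share the sex, the strain and the lack of treatment, and the labels do not state whether the 4 samples of an age are 4 animals. The p-values below therefore reflect variation between samples that could be technical.

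Myostatin and the activins are secreted proteins of the transforming growth factor beta (TGF-beta) superfamily that bind the type II receptors ACVR2A and ACVR2B, recruit a type I receptor and act through SMAD2 and SMAD3; in muscle they restrain growth. BMPs and growth differentiation factors such as GDF5 bind type I receptors such as BMPR1A together with a type II receptor, act through SMAD1, SMAD5 and SMAD9, and switch on target genes such as Id1; in mouse muscle this branch counters wasting after loss of the nerve. Both branches share type II receptors and SMAD4, and secreted antagonists such as follistatin hold ligands away from their receptors.

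Levels are given as log2 signal minus the 75th percentile of the same array, so a level of 0 equals that percentile and a difference of 1 is a doubling. Because a probe's brightness also depends on its sequence, levels are compared between ages and not between genes. Between 48.0% and 60.9% of an array's non-control spots exceeded background clearly, and no spot was saturated. One slide carried the 3 and 15 month arrays and another the 24 and 29 month arrays. On each slide an age had an array row of its own: row 2 for 3 and 29 months, row 1 for 15 and 24 months. Only 15 against 3 months and 29 against 24 months thus compare arrays of the same slide, whereas at 24 and 29 against 3 months slide and age cannot be told apart. In both comparisons within a slide, array row and age cannot be told apart. The arrays at 29 months replicates 1 and 3 and 24 months replicates 2 and 4 had the lowest array weights, 0.26 to 0.51 against 0.99 to 2.07 for the other 12 arrays. The 6 markers of muscle fibres were well above background on all 16 arrays, and none of them was called at 29 against 3 months.

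Promoters of 7 of the 10 genes were found in the RefSeq table of mouse build GRCm38.p6, and Gdf5, Fst and Id1 had no entry. The array files name another build, so these coordinates come from RefSeq alone. The promoters of the 3 receptor genes are printed because all 3 were lower in old muscle, and that of Mstn because it is the ligand of the activin type II receptors among them. Each runs 5′ to 3′ on the gene's strand from 250 bases before the transcription start to 50 after it. Capitals mark matches on either strand to CAGAC, the box that SMAD3 and SMAD4 can bind, to GGCGCC, a GC-rich box bound by BMP SMADs, and to CANNTG, the E-box bound by muscle basic helix-loop-helix factors.
Mstn (chr1:53061390-53061689, + strand): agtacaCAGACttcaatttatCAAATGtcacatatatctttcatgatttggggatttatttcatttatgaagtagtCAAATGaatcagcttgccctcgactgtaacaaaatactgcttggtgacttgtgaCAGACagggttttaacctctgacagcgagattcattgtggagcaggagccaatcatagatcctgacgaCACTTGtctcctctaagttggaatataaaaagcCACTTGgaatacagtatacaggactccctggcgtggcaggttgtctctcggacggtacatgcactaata
Acvr2a (chr2:48813859-48814158, + strand): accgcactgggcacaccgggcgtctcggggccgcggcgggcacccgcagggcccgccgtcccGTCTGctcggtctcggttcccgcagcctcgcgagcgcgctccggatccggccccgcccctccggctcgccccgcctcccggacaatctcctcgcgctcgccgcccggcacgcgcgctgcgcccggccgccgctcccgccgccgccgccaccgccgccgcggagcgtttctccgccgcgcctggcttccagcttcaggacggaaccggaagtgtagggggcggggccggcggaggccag
Acvr2b (chr9:119401928-119402227, + strand): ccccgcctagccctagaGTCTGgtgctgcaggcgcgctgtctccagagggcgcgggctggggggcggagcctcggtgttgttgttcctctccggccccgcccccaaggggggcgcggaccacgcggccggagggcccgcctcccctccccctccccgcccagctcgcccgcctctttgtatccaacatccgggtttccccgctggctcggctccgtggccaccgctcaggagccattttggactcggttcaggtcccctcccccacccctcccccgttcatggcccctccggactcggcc
Bmpr1a (chr14:34502497-34502796, - strand): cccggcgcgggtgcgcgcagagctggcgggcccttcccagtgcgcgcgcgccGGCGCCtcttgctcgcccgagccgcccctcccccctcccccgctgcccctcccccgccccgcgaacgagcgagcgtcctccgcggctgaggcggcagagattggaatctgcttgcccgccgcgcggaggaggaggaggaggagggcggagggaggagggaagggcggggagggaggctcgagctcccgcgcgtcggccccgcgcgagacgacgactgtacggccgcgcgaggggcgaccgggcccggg
The Mstn promoter held 2 CAGAC boxes, 244 and 120 bases upstream, and 4 E-boxes, and its GC content was 41.3%. The receptor promoters were richer in GC, at 80.3% for Acvr2a, 73.3% for Acvr2b and 79.3% for Bmpr1a, against a median of 52.7% over all 32851 promoters in the table. Acvr2a and Acvr2b each held 1 CAGAC box, read as GTCTG on the printed strand, 188 and 233 bases upstream, and Bmpr1a held 1 GGCGCC box 198 bases upstream. Fstl3 held 2 CAGAC boxes and 3 E-boxes, and none of these letters was found in the windows of Smad1 and Smad3. Among all promoters 49.6% held a CAGAC box, 11.9% a GGCGCC box and 72.3% an E-box, so a match is a description of the sequence only. In the Fstl3 window an E-box and a CAGAC box overlapped, and in the printed windows no match overlapped another.

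In the muscle of 29 months the transcript of the BMP ligand Gdf5 was 4.76-fold higher than at 3 months, while the receptors Acvr2a, Acvr2b and Bmpr1a and the myostatin effector Smad3 were 1.38-fold to 1.91-fold lower. Myostatin itself averaged 1.49-fold lower but did not pass the test, and the BMP target Id1 moved by less than the spread between arrays. Of the 10 genes, 1 rose and 4 fell at adjusted p under 0.05, whereas 14.6% of all genes tested were called (6.99% higher and 7.66% lower). The median log2 difference of the 10 genes was -0.48, against -0.04 over all genes. At 24 against 3 months again 1 of the 10 rose (Gdf5) and 4 fell (Acvr2a, Acvr2b, Bmpr1a and Smad1), with 4.65% of all genes called (2.17% higher and 2.48% lower) and a median of -0.45 against -0.02. These comparisons share the 3 month arrays. As the 10 genes were chosen with earlier results of these data known, their counts and medians describe them and do not test the set. Within slides, none of the 10 was called by limma at 15 against 3 months, where 0.969% of genes were called (0.689% higher and 0.28% lower). There 5 of the 10 had an unadjusted p under 0.05, as did 2334 of all 21772 genes. None was called at 29 against 24 months, where 1.92% of genes were called (1.47% higher and 0.446% lower). There 1 of the 10 had an unadjusted p under 0.05, as did 3331 of all 21772 genes. Over the 4 ages together, the F test of limma called 6 of the 10, namely Gdf5, Acvr2a, Acvr2b, Bmpr1a, Smad1 and Smad3, and 11.9% of all genes.

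**Figure D1:**
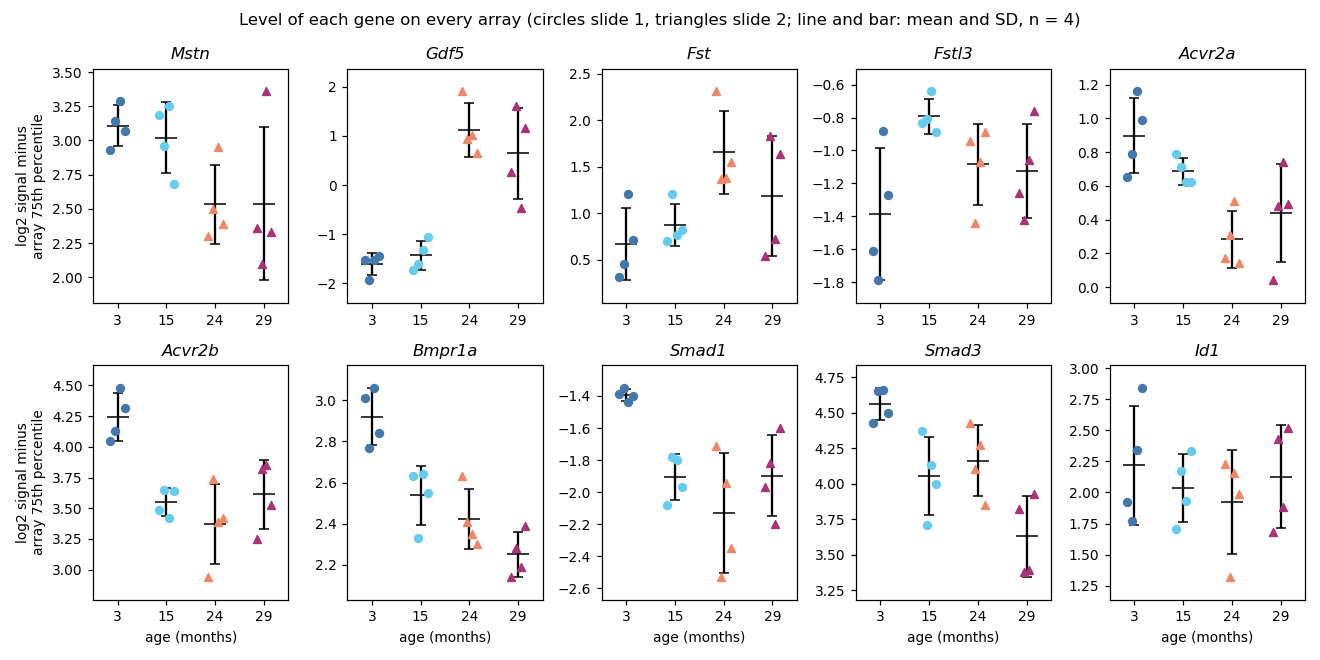
Level of each of the 10 genes (log2 signal minus the array's 75th percentile, vertical axis, scaled per gene) at 3, 15, 24 and 29 months; each point is 1 array, circles are slide 1 and triangles slide 2, and line and bar give mean and SD (n = 4). The Gdf5 arrays of 24 and 29 months, from -0.46 to 1.91, all lay above those of 3 and 15 months, from -1.94 to -1.06, and the Bmpr1a means were 2.92, 2.54, 2.42 and 2.25 in order of age.

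Mstn encodes myostatin, the ligand made by muscle fibres that limits muscle mass. Its level on replicates 1 to 4 was 2.93, 3.14, 3.29 and 3.07 at 3 months and 3.19, 2.96, 3.25 and 2.68 at 15 months. It was 2.30, 2.50, 2.95 and 2.39 at 24 months and 2.36, 2.10, 3.36 and 2.33 at 29 months. At 29 months 3 of the 4 arrays lay below every array of 3 months, while replicate 3 was the highest of all 16 arrays. Means were 2.54 ± 0.56 at 29 months and 3.11 ± 0.15 at 3 months (SD, n = 4 each), a log2 difference of -0.57 (95% interval -1.07 to -0.08) with adjusted p = 0.116 in limma. Without 29 months replicate 3 the difference was -0.85 and was called (adjusted p = 0.00600), and with array weights it was -0.70 (adjusted p = 0.031). With all arrays kept and the replicate number as a block in the fit it was also called (-0.57, adjusted p = 0.0457). The call for Mstn thus turned on that array and on the model. The level at 24 months averaged 2.53 ± 0.29, with a log2 difference from 3 months of -0.57 (adjusted p = 0.172, and 0.0486 without 29 months replicate 3). Within slides Mstn did not differ beyond its spread, with -0.09 at 15 against 3 months (interval -0.58 to 0.41) and 0.00 at 29 against 24 months (interval -0.49 to 0.50).

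Gdf5 encodes a BMP-type ligand that signals through SMAD1, SMAD5 and SMAD9, and mouse muscle is known to raise it after denervation. Its level was -1.52, -1.94, -1.52 and -1.44 at 3 months and -1.73, -1.60, -1.32 and -1.06 at 15 months. It was 1.91, 0.93, 1.01 and 0.65 at 24 months and 0.27, 1.61, -0.46 and 1.16 at 29 months. All 8 arrays of the old ages lay above all 8 arrays of the younger ones, and the 29 month arrays spread most widely, with replicate 3 the lowest of them. The mean at 29 months was 0.65 ± 0.92 against -1.61 ± 0.23 at 3 months, a log2 difference of 2.25 (SE 0.37, adjusted p = 0.00115). At 24 months it was 1.12 ± 0.55, a log2 difference from 3 months of 2.73 (SE 0.37, 6.62-fold, adjusted p = 0.00153). Both calls held without any single array (adjusted p at most 0.00687) and under the other settings tried (at most 0.0131). A second Gdf5 probe moved the same way by a smaller amount, 0.95 (SE 0.20, adjusted p over probes = 0.00572) at 29 against 3 months and 1.19 (SE 0.20, adjusted p over probes = 0.00429) at 24 against 3 months. Within slides Gdf5 was not called: the log2 difference was 0.18 at 15 against 3 months (interval -0.61 to 0.97, adjusted p = 0.963) and -0.48 at 29 against 24 months (interval -1.26 to 0.31, adjusted p = 0.601). The gap between the arrays thus lay between 15 and 24 months, where the slide also changed.

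Fst encodes follistatin, which binds activins and myostatin. Its level was 0.31, 0.45, 1.20 and 0.71 at 3 months, and between 0.70 and 1.20 at 15 months. It was 2.31, 1.37, 1.38 and 1.55 at 24 months and 0.54, 1.83, 0.72 and 1.63 at 29 months. The 24 month arrays all lay above those of 3 months, whereas 2 of the 29 month arrays, replicates 1 and 3, lay within the range of 3 months. The mean at 24 months was 1.65 ± 0.45 against 0.67 ± 0.39 at 3 months, a log2 difference of 0.99 (SE 0.30, 1.98-fold) that did not pass over all genes (adjusted p = 0.072). It passed without 29 months replicate 1 (adjusted p = 0.0482), with array weights (1.07, adjusted p = 0.0258) and without the 4 arrays of lowest weight (1.18, adjusted p = 0.0473). At 29 against 3 months the difference was 0.51 (interval -0.12 to 1.15, adjusted p = 0.272), and it was 0.86 with array weights (adjusted p = 0.0449) and 1.06 without the 4 arrays of lowest weight (adjusted p = 0.0268). The related antagonist Fstl3 ranged from -1.79 to -0.88 at 3 months, -0.89 to -0.64 at 15 months, -1.44 to -0.89 at 24 months and -1.42 to -0.76 at 29 months. Its log2 difference was 0.26 at 29 against 3 months (adjusted p = 0.396) and 0.60 at 15 against 3 months (interval 0.19 to 1.0, adjusted p = 0.197, and 0.0267 with array weights).

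**Figure D2:**
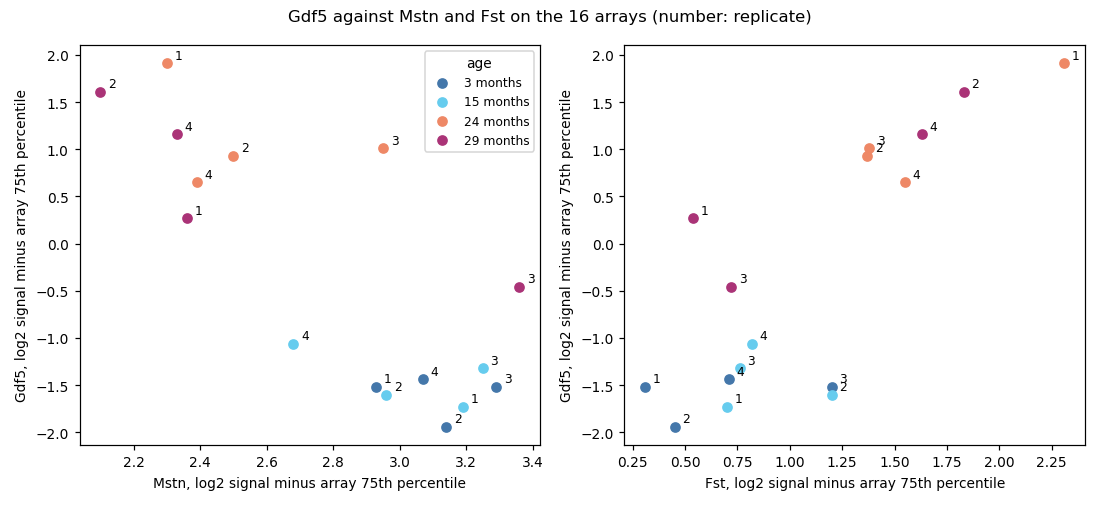
Gdf5 level (vertical axes) against Mstn (left) and Fst (right) on the 16 arrays, all as log2 signal minus the array's 75th percentile; colour gives the age and the number the replicate. On 29 months replicate 3 Gdf5 was lowest of its age (-0.46) and Mstn highest (3.36), and the 29 month arrays with Gdf5 above 1 were those with Fst above 1.6.

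At 29 months the arrays split alike in Gdf5 and Fst, but not in Mstn, in which replicate 3 (3.36) lay above the other 3 (2.10 to 2.36). Replicates 2 and 4 had Gdf5 at 1.61 and 1.16 with Fst at 1.83 and 1.63. Replicates 1 and 3 had Gdf5 at 0.27 and -0.46 with Fst at 0.54 and 0.72. Replicates 1 and 3 are also the 29 month arrays of low weight. On replicate 3 the mean log2 deviation was lowest of that age for fibroblast (-1.28), adipocyte (-1.94) and Schwann cell markers (-1.09). It was also lowest there for endothelial (-0.6), macrophage (-0.26) and satellite cell markers (-0.17). On replicate 1 it was highest for B and plasma cell (2.90), T and NK cell (1.09) and satellite cell markers (0.45). Muscle fibre (-0.33), smooth muscle and pericyte (-0.73) and tendon markers (-0.52) were lowest there. The part of these lists in the Gdf5, Fst and Mstn levels was not tested.

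Acvr2b encodes a type II receptor with high affinity for myostatin and activins. Its level was 4.05, 4.13, 4.48 and 4.32 at 3 months and 3.49, 3.65, 3.42 and 3.64 at 15 months. It was 2.94, 3.74, 3.39 and 3.42 at 24 months and 3.25, 3.82, 3.85 and 3.53 at 29 months. Every array of the 3 later ages lay below every array of 3 months. The level at 29 months averaged 3.61 ± 0.28 against 4.24 ± 0.19 at 3 months, a log2 difference of -0.63 (SE 0.17, 1.55-fold lower, adjusted p = 0.0215). That call was lost without 3 months replicate 3, 3 months replicate 4 or 29 months replicate 1 (adjusted p at most 0.066) and with scaling by the array median (0.0698). At 24 against 3 months the difference was -0.87 (SE 0.17, 1.82-fold lower, adjusted p = 0.0105), a call kept without any single array and under every alternative that covered the gene. At 15 against 3 months, within a slide but between array rows, it was -0.69 (SE 0.17, 1.62-fold lower) with adjusted p = 0.0732. This early difference passed with array weights (adjusted p = 0.0054), with a fit of only these ages (0.0168) and without 24 months replicate 1, 24 months replicate 2 or 29 months replicate 1. At 29 against 24 months it was 0.24 (interval -0.12 to 0.60). The late step less the early step was 0.93 (SE 0.24), which did not pass (adjusted p = 0.0953) and cannot be told apart from array row.

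Acvr2a encodes the other type II receptor for activins and myostatin. Its level was 0.65, 0.79, 1.16 and 0.99 at 3 months and 0.79, 0.71, 0.62 and 0.62 at 15 months. It was 0.17, 0.31, 0.51 and 0.14 at 24 months and 0.04, 0.48, 0.74 and 0.49 at 29 months. The 24 month arrays lay below all 3 month arrays, while at 29 months replicate 3 lay above the lowest of them. The log2 difference was -0.62 at 24 against 3 months (SE 0.15, adjusted p = 0.0283) and -0.47 at 29 against 3 months (SE 0.15, adjusted p = 0.0447). The call at 29 months sat near the threshold. It was lost without any 1 of 11 arrays, namely 3 months replicates 2, 3 and 4, the 4 arrays of 15 months, 24 months replicate 1 and 29 months replicates 1, 2 and 4 (adjusted p at most 0.129), and under 6 of 12 other settings (at most 0.203). That at 24 months was lost without 3 months replicates 3 or 4 or 24 months replicates 1, 2 or 4 (at most 0.0897), and with median scaling, no filter, a fit of only these ages or without the 4 arrays of lowest weight (0.0591 to 0.0687). A second Acvr2a probe gave -0.29 at 29 against 3 months (SE 0.19, adjusted p over probes = 0.341), which did not pass. At 24 against 3 months that probe gave -0.55 (SE 0.19, adjusted p over probes = 0.109), which did not pass either.

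Bmpr1a encodes a type I receptor of the BMP branch. Its level was 3.01, 2.77, 3.06 and 2.84 at 3 months and 2.63, 2.33, 2.64 and 2.55 at 15 months. It was 2.63, 2.41, 2.35 and 2.30 at 24 months and 2.14, 2.28, 2.19 and 2.39 at 29 months. All 12 arrays of the later ages lay below the lowest array of 3 months. The log2 difference was -0.67 at 29 against 3 months (SE 0.11, 1.59-fold lower, adjusted p = 0.000987), kept without any single array and under every alternative tried (adjusted p at most 0.0174). It was -0.50 at 24 against 3 months (SE 0.11, adjusted p = 0.018), which did not stay called without 3 months replicate 3 (0.0617), with scaling by the array median (0.0512), with a fit of only these ages (0.0619) and without the 4 arrays of lowest weight (0.0994). It was -0.38 at 15 against 3 months (interval -0.61 to -0.15, adjusted p = 0.125). From 24 to 29 months the means did not differ beyond their spread (-0.17, interval -0.40 to 0.06). Fitted as a line in age beside slide, its slope was -0.39 log2 per year (adjusted p = 0.0923).

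Smad3 carries the myostatin and activin signal to the nucleus. Its level was 4.43, 4.65, 4.66 and 4.50 at 3 months and 4.37, 3.71, 4.13 and 4.0 at 15 months. It was 4.43, 4.10, 4.27 and 3.85 at 24 months and 3.82, 3.38, 3.39 and 3.93 at 29 months. The 29 month arrays were all below those of 3 months and overlapped those of 24 months. The mean at 29 months was 3.63 ± 0.29 against 4.56 ± 0.12 at 3 months, a log2 difference of -0.93 (SE 0.17, 1.91-fold lower, adjusted p = 0.00207) that kept its call without any single array and under every alternative (adjusted p at most 0.0114). A second Smad3 probe gave -0.88 (SE 0.20, adjusted p over probes = 0.00795). That probe was dim, at -3.57 to -2.87 at 29 months, where 3 of the 4 arrays were well above background. Smad3 was not called at 24 against 3 months (-0.40, adjusted p = 0.186), at 15 against 3 months (-0.51, adjusted p = 0.211) or at 29 against 24 months (-0.53, adjusted p = 0.127).

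Smad1 carries the BMP signal. Its level was between -1.44 and -1.35 at 3 months and between -2.08 and -1.78 at 15 months, and it was -1.71, -2.53, -1.94 and -2.35 at 24 months and -1.97, -1.82, -2.20 and -1.60 at 29 months. Every array of the later ages lay below those of 3 months. The log2 difference was -0.50 at 29 against 3 months (SE 0.16, adjusted p = 0.0528), just outside the threshold, and it passed without 24 months replicate 1, 24 months replicate 2 or 29 months replicate 4 (adjusted p 0.0302 to 0.0318). At 24 against 3 months it was -0.74 (SE 0.16, 1.67-fold lower, adjusted p = 0.0204), a call lost without 3 months replicates 2 or 4 or 24 months replicates 2 or 4 (at most 0.0602). It was also lost with scaling by the array median (0.0508), no filter (0.05), a fit of only these ages (0.0662) and without the 4 arrays of lowest weight (-0.44, adjusted p = 0.0673), and it was smaller with normexp (-0.32, adjusted p = 0.045) and with the mean over probes (-0.43, adjusted p = 0.0435). A second Smad1 probe gave -0.31 at 29 against 3 months (adjusted p over probes = 0.198) and -0.11 at 24 against 3 months (0.706), so the probes of Smad1 disagreed in size at 24 months. Id1, an inhibitor of differentiation that BMP SMADs switch on, ranged from 1.77 to 2.84 at 3 months, 1.71 to 2.33 at 15 months, 1.32 to 2.23 at 24 months and 1.68 to 2.52 at 29 months. Its groups overlapped in every comparison, and the difference at 29 against 3 months was -0.09 (interval -0.66 to 0.47, adjusted p = 0.862). That interval does not show equal levels.

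**Figure D3:**
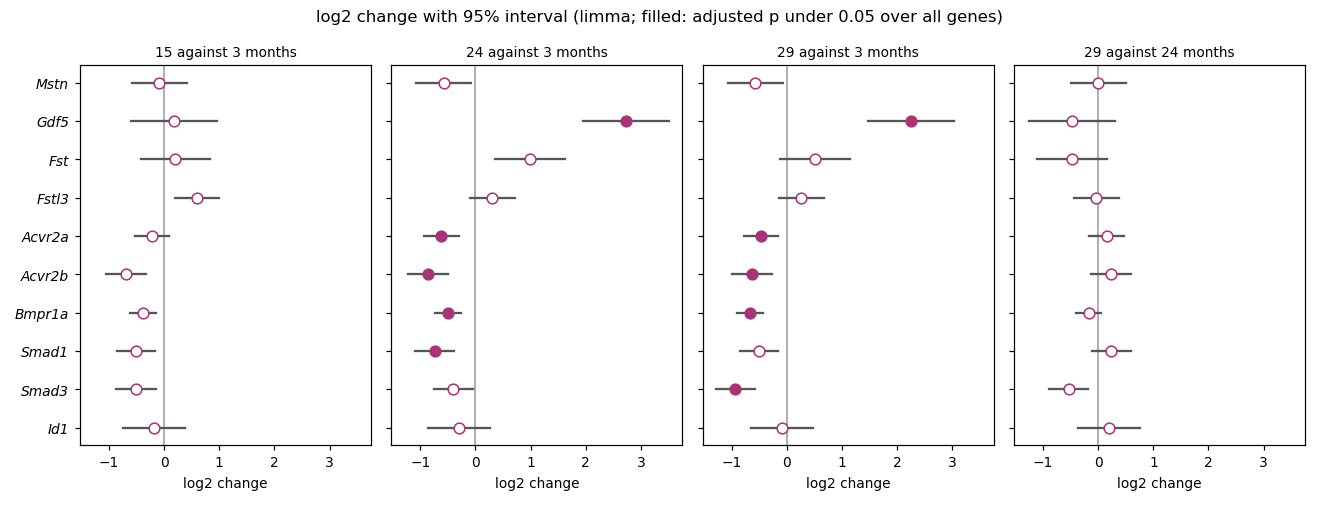
Log2 change of each gene with its 95% interval (horizontal axes) at 15, 24 and 29 against 3 months and at 29 against 24 months; filled circles passed adjusted p under 0.05 over all genes. Gdf5 stood at 2.73 and 2.25 at 24 and 29 against 3 months, the receptors and SMADs lay below 0 in all 3 comparisons with 3 months, and no circle is filled in the comparisons within a slide.

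On the probes that stand for them, most receptors and SMADs among the 10 genes lay apart at 15 and 3 months, ages that also differed in array row. The second probes of Smad1 and Smad3 overlapped. The second Smad1 probe lay at -2.79 to -2.24 at 3 months and -2.97 to -2.67 at 15 months. The second Smad3 probe lay at -2.81 to -2.10 and -3.11 to -2.73. Of the wider pathway, 5 other receptors differed by 0.1 to 0.455 and 3 other SMADs by -0.118 to -0.03, none called. At 15 against 3 months, within a slide, the arrays of Acvr2b, Bmpr1a, Smad1 and Smad3 did not overlap and all 4 lay lower, while 12.1% of all genes did not overlap (5.72% higher and 6.35% lower), although none of the 4 passed over all genes. At 24 against 3 months 6 of the 10 genes did not overlap, 2 higher and 4 lower, beside 14.8% of all genes (5.71% higher and 9.08% lower), and at 29 against 3 months 5 did not, 1 higher and 4 lower, beside 19.7% of all genes (8.74% higher and 11% lower). At 29 against 24 months none of the 10 did, beside 7.05% of all genes (4.71% higher and 2.33% lower). The 2 steps within slides were also set against each other. That contrast sets array row 2 against array row 1, so age and array row cannot be told apart in it. None of the 10 genes was called for a difference between the late and the early step (0.652% of all genes were), and 3 had an unadjusted p under 0.05. None was called for a slope in age beside slide (0.629% of all genes were), and 4 had an unadjusted p under 0.05. The share of all genes at that unadjusted p is not given for the steps or the line.

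Markers of vessels were lower in the old muscle as well. In whole muscle, fewer cells of a type and less RNA per cell cannot be told apart. Of 6 markers of smooth muscle and pericytes 4 fell and none rose at 29 against 3 months, and their summed log2 level was 5.92 to 10.01 at 29 months and 12.18 to 14.13 at 3 months. Of 6 endothelial markers 3 fell and none rose, with sums of 1.24 to 5.30 at 29 months and 6.62 to 8.0 at 3 months. Of 6 fibroblast markers 1 fell, with sums of 2.89 to 12.52 at 29 months and 11.17 to 14.72 at 3 months. Of all genes, 7.66% were called lower and 6.99% higher in that comparison. At 15 months the endothelial sums, 5.34 to 6.27, all lay below those of 3 months. The sums of smooth muscle and pericytes, 10.5 to 12.31, overlapped those of 3 months, and the fibroblast sums, 12.28 to 13.18, lay within them. At 29 against 3 months Acvr2a, Acvr2b, Bmpr1a, Smad1 and Smad3 moved in the same direction as these lists. Gdf5 and the receptors Bmpr1b, Tgfbr1 and Bmpr2, described below, moved in the other direction. The part of the lists in these levels was not tested.

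The wider pathway was read from a list of 60 other genes, of which 49 were measured above background. At 29 against 3 months 5 rose and 4 fell (median log2 difference -0.13), beside 14.6% of all genes called (6.99% higher and 7.66% lower). At 24 against 3 months and at 15 against 3 months none was called by limma, beside 4.65% and 0.969% of all genes. In these 2 comparisons 13 and 4 of the 49 had an unadjusted p under 0.05, as did 4617 and 2334 of all 21772 genes. Among 5 other receptors measured, 3 rose at 29 against 3 months, opposite to the 3 receptors above. Bmpr1b, a type I receptor that binds GDF5 well, was 1.16 higher on the log2 scale (SE 0.22, 2.24-fold, adjusted p = 0.0026). Tgfbr1, a type I receptor that TGF-beta and myostatin can use, was 0.57 higher (SE 0.11, adjusted p = 0.00261), and lost its call with scaling by the array median (0.0531). Bmpr2, a type II receptor of the BMP branch, was 0.49 higher (SE 0.12, adjusted p = 0.0171), and lost its call without 3 months replicate 1 (0.0502), with a fit of only these ages (0.0735) and with scaling by the array median (0.137).

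Of 9 other ligands 1 rose and 1 fell. Inhbb encodes the beta B subunit of activins and stood at -0.47, -0.37, -0.55 and -0.27 at 29 months, against -1.73, -2.16, -2.03 and -1.92 at 3 months. The groups were far apart, and the log2 difference was 1.55 (SE 0.40, 2.92-fold, adjusted p = 0.017; 0.95 with normexp, adjusted p = 0.012). At 24 months replicate 4 alone was raised, at 0.33 against -2.20 to -1.56 on the other 3 arrays, and without it Inhbb was called at 29 against 24 months as well (1.54, adjusted p = 0.00176). That array also had a mean log2 deviation of 2.94 over the adipocyte markers, against 0.01 to 0.16 on the other 3, and of 2.32 over the B and plasma cell markers, against -0.34 to 0.50, and an array weight of 0.51; their part in the Inhbb level was not tested. Bmp7, a BMP ligand, averaged 1.82 lower on the log2 scale (-1.82, SE 0.52, adjusted p = 0.029), but only 2 of the 4 arrays of 29 months were well above background. Its call was lost without 3 months replicates 3 or 4 or 29 months replicates 2 or 3 (adjusted p at most 0.0837) and with no filter (0.0593), and normexp background correction gave -0.63 (adjusted p = 0.053). Gdf11, the ligand closest to myostatin, and Inhba, the beta A subunit of activins, were not called (-0.20, adjusted p = 0.681, and -0.45, adjusted p = 0.54).

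Noggin, encoded by Nog, is a secreted antagonist of BMPs and did not pass at 29 against 3 months (0.05, adjusted p = 0.925). Of the 4 coreceptors measured Rgma, which helps BMPs to bind, fell (-0.54, SE 0.16, adjusted p = 0.0314), a call lost without any 1 of 7 arrays, namely those of 3 months and 29 months replicates 1, 3 and 4 (at most 0.0767). It was also lost under 5 of 12 other settings (at most 0.14), with -0.35 without the 4 arrays of lowest weight (adjusted p = 0.12).

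Inside the cell, none of 3 other SMADs passed at 29 against 3 months. Smad4, the SMAD common to both branches, differed by -0.12 (interval -0.32 to 0.08, adjusted p = 0.452), and at 24 against 3 months by -0.31 (adjusted p = 0.0785, and 0.0488 without 29 months replicate 1). Of 6 SMAD inhibitors Ski, a corepressor that binds SMAD3 and SMAD4, fell by 0.97 on the log2 scale (SE 0.15, 1.96-fold lower, adjusted p = 0.000661). Of its 4 arrays at 29 months 3 were well above background, and with normexp the difference was -0.31 (adjusted p = 0.0133). Smad7, an inhibitory SMAD, did not pass (0.06, adjusted p = 0.85). Of 6 other targets Fbxo30 rose; in mouse muscle its product is a ubiquitin ligase that BMP signalling keeps low. It stood at 0.48, 0.69, 1.19 and 0.85 at 29 months, against 0.13, -0.11, 0.05 and 0.04 at 3 months. The log2 difference was 0.78 (SE 0.15, 1.71-fold, adjusted p = 0.00339). The Id genes of the list did not pass, with Id2 at 0.76 (SE 0.66, adjusted p = 0.495; from -2.59 to 2.24 on the 29 month arrays) and Id3 at -0.23 (adjusted p = 0.552). Without 29 months replicate 1 the Id2 difference turned to -0.11, without 29 months replicate 3 it was 1.504, and without the 4 arrays of lowest weight it was 0.58 and passed (adjusted p = 0.0201).

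**Figure D4:**
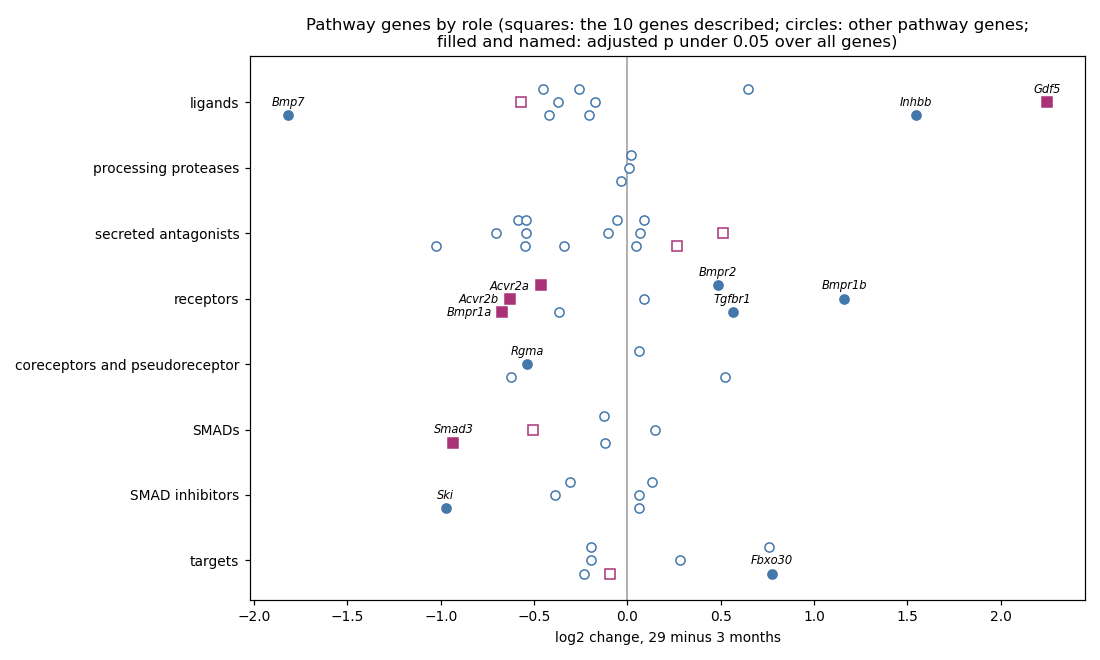
Log2 change at 29 against 3 months (horizontal axis) by role in the pathway; squares are the 10 genes described and circles 48 other pathway genes, filled and named where adjusted p was under 0.05 over all genes. Among receptors Acvr2a, Acvr2b and Bmpr1a lie on the lower side and Bmpr1b, Tgfbr1 and Bmpr2 on the higher side, with Bmp7 at -1.82 and Gdf5 at 2.25 at the ends.

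Genes whose levels ran most alike were named from 13349 others with a symbol by Pearson's r over the 16 arrays, which share ages, slides and array quality. For Mstn these were Strbp (r = 0.924), Prkaa2 (0.910) and Ampd1 (0.902). For Gdf5 they were Runx1 (0.960), Tnfrsf23 (0.958) and Lix1l (0.933). For Id1 they were Rapgef3 (0.900), Prickle1 (0.894) and Tcf4 (0.871). With each age's mean removed, r was 0.888 for Gdf5 with Runx1, 0.875 for Mstn with Strbp and 0.920 for Id1 with Rapgef3.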

How the data were processed

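Labelled RNA from whole muscle was hybridised to 1-colour (Cy3) Agilent arrays. Intensity per spot was extracted with Feature Extraction 10.7.1.1, which subtracted background and did not normalize between arrays, per the file headers. The series table that was deposited has log2 values, and the steps behind them are not stated in any source used here. Its column medians were 4.55 to 4.69, it was joined by feature number (r 0.985 to 0.993 over probes, which are not independent), its scale was taken as log2 and its centring stays unknown. It covered 9 of the 10 genes (not Acvr2b) and served as an alternative only.

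Outlier spots were removed, which dropped 93 probes. Signals were log2 transformed and each array's 75th percentile subtracted. A probe needed a signal well above background on every array of 1 or more ages (28427 probes kept), and the brightest kept probe stood for a gene. limma 3.58.1 in R 4.3.3 fitted the 4 age means over 16 arrays (12 residual and 2.73 prior degrees of freedom). Tests were two-sided and p-values adjusted by Benjamini-Hochberg over 21772 genes; adjusted p under 0.05 was called. Beside this, second probes of a gene were adjusted over all kept probes. Names came from RefSeq accessions.

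All 10 genes are named, with the pathway genes called at 29 against 3 months, 8 fixed pathway genes and the 3 genes most like Mstn, Gdf5 and Id1. The 10 genes, the lists, including the markers, and the alternatives were chosen with earlier results of these data known. Besides the marker lists in the report, 2 of 4 measured tendon markers and 1 of 4 satellite cell markers fell, 1 of 4 B and plasma cell markers rose, 1 of 6 Schwann cell markers rose and 1 fell, and none of 5 adipocyte, 5 macrophage or 3 T and NK cell markers was called. Pathway genes not measured above background were Bmp5, Gdf6, Gdf10, Tll2, Acvr1c, Rgmb, Bambi, Grem1, Chrdl1, Smad9 and Id4. A pathway gene that the naming rule includes is not reported here and not drawn, although counts over the list include it. The fits were tested on simulated data. The number of arrays limits the precision.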

Additional observations from a re-analysis of the deposited data

Results flagged for a closer look

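In 3 of 120 sets of 4 arrays of a probe at an age, 1 array stood far from the other 3; chance gives about 1 in 20 such sets. On the second Acvr2a probe, 24 months replicate 2 was at -1.67 and the others at -2.42 to -2.33. On the Gdf5 probe, 3 months replicate 2 was at -1.94 and the others at -1.52 to -1.44, a distance that is small beside the step in Gdf5 between ages. For Tgfbr1, 3 months replicate 3 was at 1.92 and the others at 1.66 to 1.67.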

How the results depend on the processing

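Gdf5, Bmpr1a and Smad3 kept their calls at 29 against 3 months, and Gdf5 and Acvr2b theirs at 24 against 3 months, under every alternative run that covered them, array by array included. Counts of calls moved more. For all genes at 29 against 3 months (3189) the count was 1536 with scaling by the array median, 1982 with a fit of only the ages compared and 1950 at 1.5-fold or more. For the 10 genes (5) it was 3 with median scaling and 3 with the deposited values. For all genes at 24 against 3 months (1013) it was 511 with median scaling, 1842 with normexp, 470 with no filter and 557 with only the ages compared. For the 10 genes (5) it was 2, 3, 2 and 3 with median scaling, no filter, only the ages compared and without the 4 arrays of lowest weight, and for the other pathway genes (0) it was 1, 3 and 1 with normexp, deposited values and array weights. For all genes at 15 against 3 months (211) it was 88 with median scaling, 106 with no filter, 717 with only the ages compared, 1112 with array weights and 801 without the 4 arrays. For the 10 genes (0) it was 1, 2, 4 and 2 with normexp, only the ages compared, array weights and without the 4 arrays, and for the pathway genes (0) it was 1, 1, 2, 1 and 2 with normexp, deposited values, only the ages compared, array weights and without the 4 arrays. For all genes at 29 against 24 months (417) it was 249 with median scaling, 672 with normexp, 1097 with deposited values, 153 with no filter, 9 with only the ages compared, 229 with array weights and 52 without the 4 arrays. For the pathway genes (1) it was 0 with quantile normalization, median scaling, no filter and only the ages compared, 3 with deposited values and 2 with eBayes trend and robust. The F test called 3 of the 10 genes with median scaling (6), the line in age 3 with array weights and 6 without slide (0), and the difference of steps 1 with normexp, 1 with array weights and 1 without the 4 arrays (0). The cause was not tested. Fits of fewer arrays have fewer degrees of freedom.

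Leaving out each array in turn gave 2184 to 3543 genes, 3 to 6 of the 10 and 7 to 10 pathway genes at 29 against 3 months, 452 to 1280, 3 to 6 and 0 to 2 at 24 against 3 months, 85 to 268, 0 to 1 and 0 to 2 at 15 against 3 months, and 153 to 562, 0 to 0 and 0 to 1 at 29 against 24 months; the F test gave 3 to 7, and the line and the steps 0 to 0. Among the 10 genes, directions turned only for differences that were not called. At 29 against 3 months Id1 was 0.13 with array weights, 0.26 without the 4 arrays and -0.24 to 0.12 leaving out arrays. At 15 against 3 months Mstn ranged from -0.164 to 0.027 and Id1 from -0.333 to 0.025. At 29 against 24 months Mstn was -0.054 with quantile normalization, -0.064 with deposited values, -0.23 with array weights, -0.41 without the 4 arrays and -0.27 to 0.15 leaving out arrays. Fstl3 was 0.084 with median scaling, 0.069 with normexp, 0.27 with deposited values and -0.162 to 0.059 leaving out arrays, and Id1 ranged from 0 to 0.35. Gdf11, Smad7, Id2, Id3 and Nog, none of them called at 29 against 3 months, also turned there under at least 1 setting.

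Samples with the same replicate number did not deviate together more than others (24 pairs, r -0.47 to 0.30, mean -0.016, against a mean of 0.006 over 72 other pairs). Of 16 samples, 5 were closest to their own number. The labels do not say what the numbers mark, and each replicate number is also the array column on its slide. With the replicate block 1 of the 10 genes and 1 pathway gene were called at 15 against 3 months, 258 genes and 0 pathway genes at 29 against 24 months, and Mstn at 29 against 3 months (-0.57, adjusted p = 0.0457), while Rgma lost its call (adjusted p = 0.0515). Slide as a random block could not be fitted, as each age lay on 1 slide, and normexp used median spot signals with an offset of 50. Scaling by the array median moved the median of all genes at 24 against 3 months to -0.15 and that of the 10 genes to -0.58. Of calls at 29 against 24 months 76.7% were higher, against 90.8% with median scaling and 60.4% with deposited values, and at 15 against 3 months 71.1%, against 58.6% with normexp and 59.6% with deposited values.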
